A study of Mus musculus with 2 samples.

Results

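Isolated H3K4me1 regions are the regions of the deposited H3K4me1 list whose nearest other region on the same chromosome lies more than 20000 bp away, edge to edge. They were chosen by the measured spacing of the list alone, and 5804 of the 59923 regions (9.69%) met the rule. The main group for comparison was the 39425 regions (65.8%) with another region within 2000 bp. The remaining 14692 regions (24.5%) lay in between, and 2 regions were alone on their sequence and had no distance. EP300 and H3K4me1 were mapped by chromatin immunoprecipitation and sequencing in melan-a, an immortalized mouse melanocyte line that the labels give as C57BL/6 Ink4a -/-. There was no treatment, and both antibodies were used on this 1 line. EP300 was represented by 2 peak lists, 1 per replicate (8451 peaks from 31439027 filtered tags and 10351 peaks from 32355042), and H3K4me1 by 1 list for its 2 replicates, of unknown depth. No label gives the replicates as separate cultures, so the spread between the EP300 lists may be technical.

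H3K4me1 is the single methylation of a lysine in the tail of histone H3. It is found at active and primed enhancers and at the flanks of promoters, usually on the nucleosomes beside the site where transcription factors bind. EP300 is a histone acetyltransferase that transcription factors recruit, and its binding together with H3K4me1 is widely used to locate enhancers, in melanocytes as elsewhere. An enhancer with a nucleosome-depleted centre can therefore appear as a pair of neighbouring H3K4me1 regions.

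The isolated regions were spread far apart. Their median distance to the nearest region was 42000 bp, against 800 bp over the whole list and 500 bp in the group with neighbours. The nearest region was over 50000 bp away for 2396 members (41.3%), over 100000 bp for 1133 (19.5%), over 500000 bp for 135 (2.33%) and over 1000000 bp for 43 (0.741%). On their more open side the median gap was 115000 bp. The thinning extended well beyond the distance that defined the members. Within 100000 bp on either side of the centre a median of 4 other regions was found, against 16 for regions with a neighbour, and within 1000000 bp a median of 56 against 85. These spacings follow from the rule or from the same list and were not tested.

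**Figure D1:**
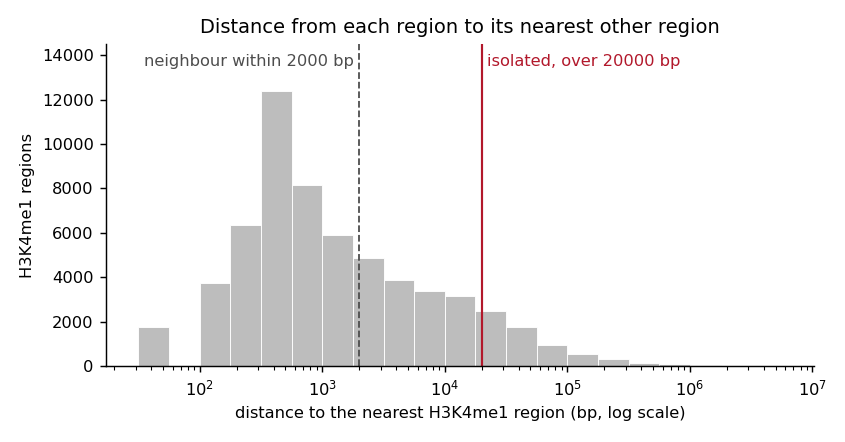
Number of H3K4me1 regions (vertical axis) by distance to the nearest other region in bp (horizontal axis, log scale), with lines at the 2000 bp and 20000 bp limits. The distances form 1 continuous distribution with its highest bar below 1000 bp, and the 5804 isolated regions are its tail to the right of 20000 bp.

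The threshold cut through a continuous distribution. Of the regions just inside it, 10 had a distance of 20050 bp, and 5 regions just outside it had 20000 bp. By rank, the first of those inside were at chromosome 7, 104519300 to 104519749 (rank 13088), chromosome 2, 129121200 to 129121599 (rank 22569), and chromosome 11, 75770050 to 75770499 (rank 25520). The first of those outside were at chromosome 2, 165732250 to 165732699 (rank 17387), chromosome 13, 34688050 to 34688399 (rank 40094), and chromosome 17, 74716350 to 74716699 (rank 42242). None of these 6 regions overlapped an EP300 peak. The 423 regions from 20000 bp to 22000 bp had a median width of 400 bp and overlapped EP300 of either list in 5.20% of cases. The 476 regions from 18000 bp to 20000 bp had 350 bp and 6.72%, so the members next to the limit resembled their neighbours across it. All coordinates here and below are mm9, as deposited.

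Isolated regions were narrow and ranked low. Their median width was 350 bp (quartiles 200 bp and 500 bp), compared with 550 bp (300 bp and 900 bp) among regions with a neighbour. At most 200 bp was reached by 29.4% of the members and 15.5% of the comparison group, and over 1000 bp by 5.91% and 19.1%. Together the members covered 2.47 Mb, 6.40% of the covered length, with 9.69% of the regions. Their median maximum log2 fold change was 3.57, against 3.79 in the comparison group, and the highest value in the members was 5.73. The -log10 Poisson p reached its ceiling of 100 in 15.2% of the members and 47.9% of the comparison group. The share of isolated regions rose from 3.41% in the top quintile of H3K4me1 rank through 7.33%, 10.9% and 13.4% to 13.5% in the lowest quintile. Width, rank and fold change come from the list to which the rule was applied, so they describe the members and were not tested.

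**Figure D2:**
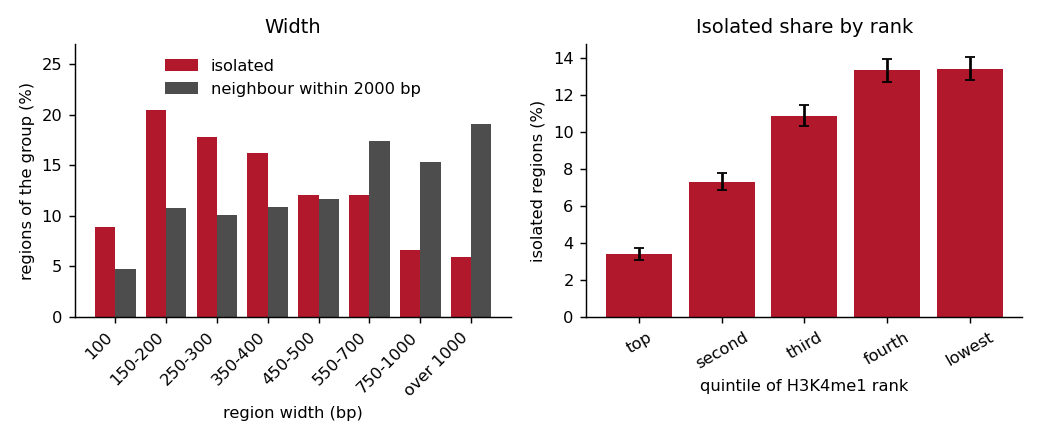
Left, percent of the regions of each group (vertical axis) by width in bp for isolated regions and regions with a neighbour within 2000 bp. Right, percent of all regions that were isolated by quintile of H3K4me1 rank, with 95% Clopper-Pearson intervals. Isolated regions gather in the narrow classes and rise from 3.41% of the top quintile to 13.5% of the lowest.

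Not all members were weak, and 1903 of them (32.8%) ranked in the upper 50% of the list. The best ranked was at chromosome 4, 153572700 to 153574049, with rank 36 of the list, a width of 1350 bp and a maximum log2 fold change of 5.51. Its gaps were 38950 bp and 45850 bp, and no EP300 peak overlapped it, although a summit of replicate 2 lay 1916 bp from its centre. Next came chromosome 8, 75205750 to 75207049 (rank 136), with the highest log2 fold change of the members (5.73) and no EP300 summit within 100000 bp. At chromosome 9, 121332050 to 121332999, the region of rank 151 overlapped a peak of replicate 2 with 32 tags, and at its summit the peak stood 4.63-fold above MACS's estimate of the local background (its fold enrichment). That at chromosome 3, 87886950 to 87887599 (rank 337), overlapped none. The fifth, at chromosome 9, 91061850 to 91062549 (rank 531), had gaps of 676200 bp and 1006650 bp and overlapped a peak of replicate 1 with 60 tags and 4.77-fold enrichment. Each of these 5 strongly marked regions was thus overlapped by an EP300 peak of at most 1 list.

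The 5 widest isolated regions were 2850 bp to 3650 bp long. The widest, at chromosome 18, 9397300 to 9400949, ranked 782 and overlapped a peak of replicate 2 (51 tags, 4.93-fold). The regions at chromosome 11, 96686200 to 96689649 (3450 bp), and chromosome 2, 34629450 to 34632799 (3350 bp), overlapped no EP300 peak and had the nearest summit over 100000 bp away in both lists. At chromosome 8, 13462150 to 13465399, a region of 3250 bp held the summits of a pair of overlapping peaks, enriched 10.9-fold with 51 tags (replicate 1) and 6.95-fold with 60 tags (replicate 2). The last, at chromosome 6, 34222300 to 34225149 (2850 bp), overlapped a weak peak of replicate 2 (41 tags, 4.53-fold). Of the 5, a single region therefore had EP300 in both lists.

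The most distant members on assembled chromosomes ranged from weak to well ranked. At chromosome X, 60848550 to 60848699, a region of 150 bp and rank 54341 was 2699950 bp from the next. A region at chromosome 8, 102428050 to 102428699 (650 bp, rank 25809), was 2649300 bp away, and one at chromosome 5, 69949200 to 69949599 (400 bp, rank 41235), 2295600 bp. This last region overlapped no peak, yet a replicate 2 summit lay 787 bp from its centre. The next were at chromosome 16, 80493200 to 80493349 (150 bp, rank 52351, 2257700 bp) and chromosome 14, 96917800 to 96918149 (350 bp, rank 8451, 2084950 bp). None of the 5 overlapped an EP300 peak of either list.

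Isolated regions overlapped EP300 less often than regions with a neighbour, in both replicates. EP300 of replicate 1 overlapped 244 of 5804 members (4.20%, 95% Clopper-Pearson interval 3.70% to 4.75%), where 12.3% of all H3K4me1 regions were overlapped. Replicate 2 overlapped 269 members (4.63%, interval 4.11% to 5.21%), where the share over all regions was 14.2%. Either list overlapped 420 members (7.24%, interval 6.58% to 7.93%) against 18.7% of all regions. Both lists overlapped 93 members (1.60%, interval 1.30% to 1.96%) against 7.82% of all regions. In the group with a neighbour, 16.6% of regions were overlapped in replicate 1, 19.0% in replicate 2, 24.6% in either list and 11.0% in both. Intervals cover counting error only.

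Part of this gap went with width. When the lengths of the comparison group were weighted to those of the members, its share was 10.7% (interval 10.4% to 11.1%) in replicate 1, 2.56 times the share of the members. It was 12.4% (interval 12.1% to 12.7%) in replicate 2, 2.67 times theirs. Matched on exact length in a Mantel-Haenszel analysis over 55 lengths (38812 of the regions with a neighbour had a matching length), the odds of overlap of an isolated region relative to one with a neighbour were 0.347 in replicate 1 (interval 0.304 to 0.397, Cochran-Mantel-Haenszel test, two-sided adjusted p = 3.6e-59, n = 5804 isolated regions). In replicate 2 they were 0.325 (interval 0.286 to 0.369, adjusted p = 3.98e-73, n = 5804). For either list the ratio was 0.367 (interval 0.330 to 0.407, adjusted p = 1.31e-84, n = 5804) and for both lists 0.224 (interval 0.182 to 0.277, adjusted p = 1.96e-52). Without matching, the ratios were 0.220, 0.208, 0.239 and 0.132. The n counts regions and not replicate samples, the test takes each region as independent, and 1 peak between a pair of regions counts for both. With each run of neighbours counted once, by its widest region, the ratio for either list was 0.441 (interval 0.391 to 0.497).

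In percentage points the difference was wider among wide regions. The relative gap was not constant across widths either, so the common odds ratio averages over widths with unlike gaps. Among regions of 100 bp, EP300 of replicate 1 overlapped 2.32% of isolated regions (12 of 517) and 3.03% of those with a neighbour (57 of 1880), with overlapping intervals. At 550 bp to 700 bp the shares were 6.85% and 17.7%, and at 750 bp to 1000 bp 4.71% and 25.9%. Replicate 2 gave 2.32% and 3.67% at 100 bp, 6.28% and 19.4% at 550 bp to 700 bp, and 8.64% and 29.1% at 750 bp to 1000 bp. Over 1000 bp, 12.8% and 14.3% of the isolated regions were overlapped in the 2 lists, against 31.5% and 35.9%. From 150 bp upwards the intervals of the groups did not overlap in any class of either list.

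**Figure D3:**
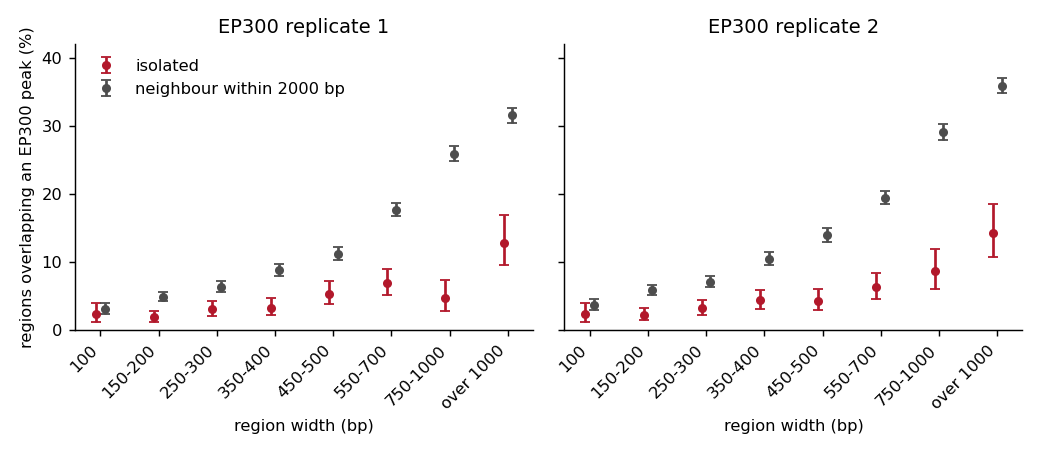
Percent of H3K4me1 regions overlapping an EP300 peak (vertical axis) by region width in bp (horizontal axis), for EP300 replicate 1 (left) and replicate 2 (right), with 95% Clopper-Pearson intervals. Points of the 2 groups start close together at 100 bp (2.32% and 3.03% in replicate 1) and separate to 12.8% and 31.5% over 1000 bp.

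The lower share held in every quintile of H3K4me1 rank, where width was not matched. In the top quintile of H3K4me1 rank, EP300 of either list overlapped 17.6% of isolated regions (interval 14.0% to 21.6%) and 45.2% of those with a neighbour. The shares were 10.9% and 28.6% in the next quintile, 6.67% and 19.4% in the middle one, 5.56% and 13.2% in the fourth, and 4.71% and 8.22% in the lowest. Matching on rank decile as well as on length gave an odds ratio of 0.396 (interval 0.356 to 0.440) for either list. Isolated regions with EP300 were themselves stronger than those without. The 93 with both lists had a median percentile rank of 62.3 (100 is best) and a median width of 550 bp, the 327 with 1 list 49.2 and 450 bp, and the 5384 with none 34.8 and 350 bp. A wide region has more room to meet a peak, and within the members width was not matched.

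The share of regions with EP300 did not keep falling with distance. Standardised to the lengths of the members, the share overlapped by either list was 16.1% with a neighbour within 500 bp and highest, at 22.3%, with the nearest region 500 bp to 1000 bp away. It was 9.64% at 1000 bp to 2000 bp, 5.49% at 2000 bp to 5000 bp, 6.00% at 5000 bp to 10000 bp and 5.74% at 10000 bp to 20000 bp. Among the isolated regions it was 6.25% (interval 5.48% to 7.03%) up to 50000 bp, 6.82% (interval 5.44% to 8.20%) up to 100000 bp and 10.7% (interval 8.83% to 12.6%) beyond. The share thus fell from its highest value to that at 2000 bp to 5000 bp. The larger step was across 1000 bp, from 22.3% to 9.64%, followed by a smaller one to 5.49% at 2000 bp to 5000 bp. For either list, no isolated class had a lower value than that class. At 50000 bp to 100000 bp, replicate 2 (3.46% against 3.86%) and both lists (1.02% against 1.19%) were lower than at 2000 bp to 5000 bp, with overlapping intervals.

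The 14692 regions whose nearest region was 2000 bp to 20000 bp away were set beside the members after these values had been seen. Their odds ratios thus only restate the course over distance and are a description, not evidence from a test. The length-matched odds ratio of isolated regions relative to them was 1.28 for either list (interval 1.13 to 1.44) and 1.44 in replicate 1 (interval 1.23 to 1.69). In replicate 2 it was 1.15 (interval 0.990 to 1.33), an interval that holds 1, and for both lists 1.29 (interval 1.00 to 1.65). The standardised share of the regions in between was 5.73% for either list (interval 5.37% to 6.09%), which overlaps the interval of the 3408 members nearest to the limit, up to 50000 bp, and lies below that of the 1133 members over 100000 bp. Unmatched, the shares were 7.24% of isolated regions and 7.44% of the regions in between.

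In the 1133 regions over 100000 bp from the next, replicate 1 overlapped 6.25% (interval 4.76% to 7.74%) after standardisation and replicate 2 7.05% (interval 5.50% to 8.59%). At 20000 bp to 50000 bp the values were 3.41% (interval 2.83% to 3.98%) and 4.25% (interval 3.60% to 4.89%). Both lists overlapped 2.59% (interval 1.61% to 3.56%) of the most distant regions. In between, at 50000 bp to 100000 bp, the values were 4.38% in replicate 1 and 3.46% in replicate 2, the lowest of the isolated regions in that list. These most distant regions were also the weakest by the mark, with a median percentile rank of 30.8 and a median -log10 p of 53.4, against 37.3 and 66.2. Their EP300 peaks had median enrichments of 6.08-fold and 5.61-fold in the 2 lists, against 6.08-fold and 5.44-fold, and 44.3% and 41.4% of them were found in the other list. The rise was noticed in the data and was not tested.

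**Figure D4:**
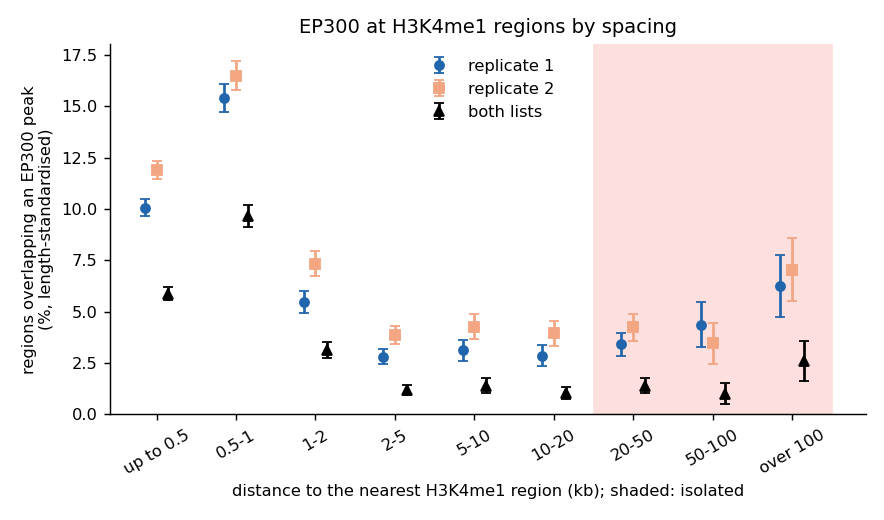
Length-standardised percent of H3K4me1 regions overlapping an EP300 peak (vertical axis) by distance to the nearest H3K4me1 region in kb (horizontal axis), for replicate 1, replicate 2 and both lists, with 95% intervals by the normal approximation. Shares peak where the nearest region is 500 bp to 1000 bp away, are low from 2000 bp on, and are higher again over 100000 bp (6.25% and 7.05%).

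EP300 summits gathered at isolated regions as a local rise over a lower density around them. Between 10000 bp and 20000 bp beyond the edges of the members there were 1.36 summits per Mb in replicate 1 (interval 1.16 to 1.59) and 1.79 in replicate 2 (interval 1.56 to 2.05). Inside the regions there were 23.5 (interval 17.8 to 30.4) and 30.4 (interval 23.9 to 38.1) summits per Mb, 17.3 times and 16.96 times as many. The highest density was beside the regions, at 200 bp to 400 bp beyond the edge, with 44.4 (interval 36.2 to 53.8) and 42.2 (interval 34.3 to 51.4), although in replicate 2 this interval overlapped that inside the regions. It was 26.3 and 31.0 at 400 bp to 600 bp, 8.61 and 8.18 at 600 bp to 1000 bp, and 2.76 and 4.82 at 1000 bp to 2000 bp. No H3K4me1 region lies in any of these outer windows, by the rule, so the rises were measured against windows chosen to lack the mark. The outer windows were not compared with the density over the whole genome. Of all EP300 peaks, 41.6% in replicate 1 and 44.3% in replicate 2 overlapped no H3K4me1 region.

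Regions with a neighbour had a similar density inside and a much higher one beside them. Width was not matched here, and the regions with a neighbour were wider. Inside there were 25.9 summits per Mb in replicate 1 (interval 24.0 to 27.8) and 37.8 in replicate 2 (interval 35.6 to 40.2). At 200 bp to 400 bp beyond the edge there were 194 and 198, a summit between a pair of regions counting for each. At 10000 bp to 20000 bp the density was still 12.5 and 14.9, so that the density inside was 2.07 times and 2.54 times as high. In replicate 1 the intervals inside the regions overlapped between the groups, and likewise in replicate 2. By factor, the groups thus differed far less inside the regions than beside them or at 10000 bp to 20000 bp. Those outer windows are free of H3K4me1 regions by the rule for the isolated group only.

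**Figure D5:**
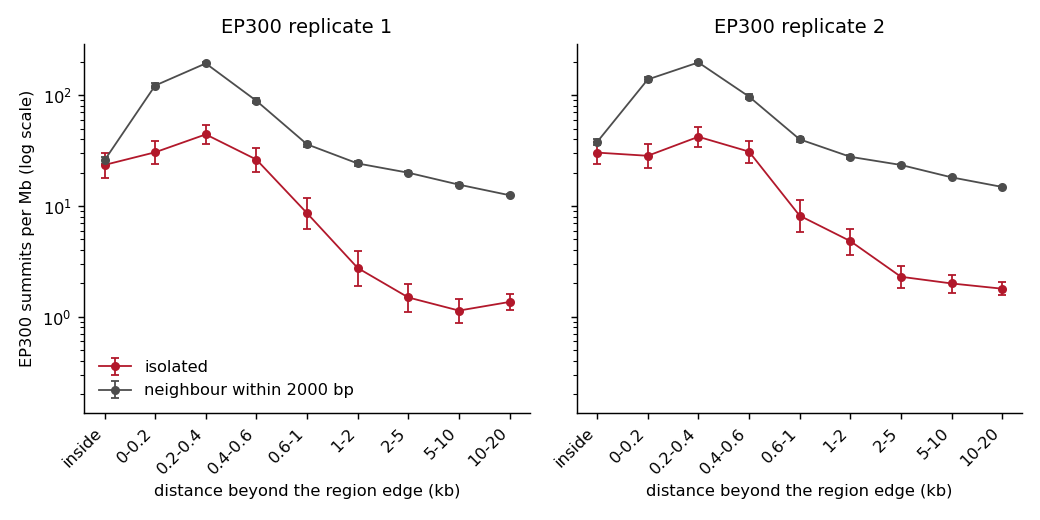
EP300 summits per Mb (vertical axis, log scale) inside H3K4me1 regions and by distance beyond their edges in kb, both sides pooled (horizontal axis), for replicate 1 (left) and replicate 2 (right), with exact 95% Poisson intervals. The groups nearly meet inside the regions (23.5 and 25.9 in replicate 1) and are farthest apart in absolute terms at 200 bp to 400 bp (44.4 and 194). Width was not matched.

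Where a peak overlapped an isolated region, its summit usually lay outside the region, on 1 side of it. The best peak had its summit inside the region in 58 of 244 cases in replicate 1 (23.8%, interval 18.6% to 29.6%) and in 74 of 269 in replicate 2 (27.5%, interval 22.3% to 33.3%). In the group with a neighbour this held for 10.2% and 12.9%. There, 4125 peaks overlapped 6556 regions in replicate 1, and 4706 peaks overlapped 7477 regions in replicate 2. Isolated regions had 245 peaks over 244 regions and 270 over 269. A summit can lie inside only 1 region, so a peak counted for several regions lowers the share. Width was not matched either. Summits outside lay a median of 248 bp and 269 bp from the edge of the isolated region, and 269 bp in each list for regions with a neighbour. Only peaks that reach the region were counted, which limits this distance. Whole regions within the peak made up 18.9% and 19.7% of the overlapped members, against 7.23% and 9.80%, which goes with the narrower width of the members.

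EP300 peaks at isolated regions were of middling strength. There were 245 of them in replicate 1 (2.90% of the list) and 270 in replicate 2 (2.61%). Median enrichment at isolated regions was 6.08-fold in replicate 1, between the 6.68-fold at regions with a neighbour and the 5.30-fold of peaks without any H3K4me1 region. The replicate 2 medians were 5.61-fold, 6.16-fold and 5.17-fold. Median tag counts were 45 in each list, against 56 and 61 beside a neighbour and 30 and 31 without a region. The median percentile rank by significance was 58.1 and 52.7, against 69.1 and 70.7, and 29.1 and 30.2.

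Peaks at isolated regions were found in the other replicate less often than those at regions with a neighbour. This held for 40.4% (99 of 245, interval 34.2% to 46.8%) in replicate 1 and 40.0% (108 of 270, interval 34.1% to 46.1%) in replicate 2. At regions with a neighbour the shares were 66.8% and 59.1%, at peaks without a region 14.1% and 9.25%, and over all peaks 42.9% and 34.8%. Among the top quintile of peaks by significance, the shares at isolated regions were 82.4% (28 of 34, interval 65.5% to 93.2%) and 83.3% (35 of 42, interval 68.6% to 93.0%), against 92.0% and 87.4%, the former intervals holding the latter values. In the second lowest quintile the shares were 15.2% (interval 6.34% to 28.9%) and 16.4% (interval 7.77% to 28.8%), against 41.4% and 35.0%. In the middle quintile they were 22.4% (interval 11.8% to 36.6%) and 43.5% (interval 31.6% to 56.0%), against 48.7% and 37.6%, so that the order was the other way round in replicate 2. In the second highest quintile they were 54.8% (interval 43.5% to 65.7%) and 39.4% (interval 27.6% to 52.2%), against 68.5% and 54.5%. Both of these latter values lie above the intervals. The lowest quintile had 21.9% (interval 9.28% to 40.0%) and 21.1% (interval 9.55% to 37.3%), against 34.0% and 27.4%, which lie within the intervals.

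At the 93 isolated regions with EP300 in both lists, the best peaks of the 2 lists overlapped each other in all 93 cases. Replicate 1 was enriched by 3.39-fold at the weakest and 26.6-fold at the strongest (median 6.68). For replicate 2 these were 3.21-fold, 27.8-fold and 6.13. The strongest was at chromosome 10, 38272350 to 38272999, a region of 650 bp with the middling rank 24414 and gaps of 193400 bp and 32750 bp. Its replicate 1 peak had 283 tags, was enriched 26.6-fold and ranked 17 by significance. Its replicate 2 peak had 284 tags, was enriched 27.8-fold and ranked 13. Their summits lay 404 bp and 420 bp beyond the region's edge.

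A region at chromosome 13, 39596900 to 39597549 (rank 27067), had 23.4-fold and 17.5-fold enrichment, with summits 374 bp and 193 bp beyond the edge. At chromosome 10, 6238100 to 6240299, a wide region of 2200 bp and rank 655 had 20.8-fold and 13.3-fold enrichment. The region at chromosome 13, 13118850 to 13119699 (rank 1662), had 22.8-fold and 15.3-fold. Over the 10 strongest loci, replicate 1 ranged between 7.39-fold and 26.6-fold, and replicate 2 between 8.26-fold and 27.8-fold. In all 10 the summits of both lists lay outside the region, by 192 bp to 573 bp.

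The other 6 of the 10 had the nearest H3K4me1 region up to 139850 bp away. Those at chromosome 6, 140284350 to 140284799 (rank 42262), and 128539000 to 128539299 (300 bp, rank 32331), ranked in the lower 50% of the H3K4me1 list. EP300 was enriched 15.5-fold and 11.1-fold at the former and 15.9-fold and 13.5-fold at the latter. The region at chromosome 18, 17048200 to 17048749, had a gap of 2654850 bp on 1 side and 55950 bp on the other, with 14.1-fold and 9.85-fold enrichment. On chromosome 1, EP300 reached 17.0-fold and 11.2-fold beside the region spanning 43673300 to 43674549. Beside that spanning 75690100 to 75690749 it reached 12.8-fold in replicate 1 and 8.26-fold in replicate 2. The last of the 10, at chromosome 9, 85997050 to 85997599, had 7.39-fold and 9.95-fold.

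Isolated regions were found on all 20 chromosomes compared, with 8 more on chromosome Y or unplaced sequence. Their share of the regions ranged from 6.67% on chromosome 11 (286 of 4287, interval 5.94% to 7.46%) to 12.4% on chromosome 13 (317 of 2556, interval 11.1% to 13.7%), with a median of 9.92%. Chromosome 11 had the densest list, with 35.2 regions per Mb. Chromosome X had the sparsest, with 9.42 regions per Mb, and 11.5% of its regions (180 of 1568, interval 9.94% to 13.2%) were isolated. The densities of isolated regions ran only from 1.08 to 2.64 per Mb.

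EP300 of either list overlapped a smaller share of isolated regions than of regions with a neighbour on each of the 20 chromosomes. Among isolated regions the share was highest on chromosome 6, with 47 of 342 (13.7%), and lowest on chromosome X, with 4 of 180 (2.22%). Among regions with a neighbour the same chromosomes were the extremes, with 34.3% and 6.79%. Without chromosome 6 the odds ratio for either list was 0.359, and without chromosome X it was 0.365.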

How the data were processed

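EP300 and H3K4me1 ChIP-seq of melan-a cells was used as deposited, in mm9 coordinates per the submitters' processing notes. Per the file headers, the authors called EP300 peaks with MACS for each replicate against its own control. Per the file headers, the deposited values of each peak are a tag count, a significance score (10 times the -log10 p), a fold enrichment and an FDR in percent. Per the file headers, the H3K4me1 list gives a rank, a score, a maximum log2 fold change, an FDR as a fraction, and a smallest Poisson p-value on the -log10 scale, with 100 as its ceiling. The H3K4me1 caller and pooling, and the aligner, are not given in the sources consulted.

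Distances were counted as the bases between region edges. An overlap was at least 1 bp. Shares have Clopper-Pearson and densities exact Poisson 95% intervals. Isolated regions and regions with a neighbour were matched on exact width by Mantel-Haenszel odds ratios (Robins-Breslow-Greenland intervals) and the Cochran-Mantel-Haenszel test, with Benjamini-Hochberg adjustment over 4 overlap measures and a threshold of 0.05. Standardised shares weight each width as in the isolated regions. Regions are not replicates, so p-values describe these lists. The functions were tested on simulated data. For the odds ratio, overlap was drawn there independently for each region, so peaks shared by several regions were not covered. Named regions are the 5 most distant, best ranked and widest members, the 10 with the strongest EP300 in both lists, and 3 on each side of the threshold, on assembled chromosomes. The members, measures and rules were chosen with earlier results of these data known. Genes and sequences at the regions were not analysed here. Python 3.11.15, scipy 1.17.1 and pandas 2.3.3 were used.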

Additional observations from a re-analysis of the deposited data

How the results depend on the processing

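The odds ratios of overlap with EP300 were recomputed for all 4 measures under 13 other settings, and the 52 values kept their direction and stayed past the threshold, between 0.132 and 0.520. These were other isolation and neighbour distances, stricter or looser overlap, the upper 50% of either kind of list, matching on rank or none, runs counted once, and leaving out chromosome X or 6. For the upper 50% of H3K4me1 ranks, the spacing of the whole list was kept, which left 1903 isolated regions. Leaving out an EP300 replicate applies to either list and both lists only and leaves the ratio of the other replicate (0.325 without replicate 1 and 0.347 without replicate 2), so it adds no further evidence. The ratio moved by over 1.5 times without matching (0.239 for either list, 0.220, 0.208, and 0.132 for both lists), and for both lists without replicate 2 (0.347 against 0.224). Against the regions 2000 bp to 20000 bp from the nearest, a comparison added after the data were seen, the ratios lay above 1, at 1.28 for either list (interval 1.13 to 1.44), 1.44 in replicate 1 (1.23 to 1.69), 1.15 in replicate 2 (0.990 to 1.33) and 1.29 for both lists (1.00 to 1.65). This comparison is a description only. The interval held 1 in replicate 2 and began at 1.00 for both lists. The number of isolated regions was 9462 with a distance of 10000 bp and 2396 with 50000 bp. In the upper 50% of the H3K4me1 list, with spacing recomputed, 5222 regions were isolated, of which 1902 were isolated in the whole list, so membership depends on how deep the list goes. Odds ratios of overlap with EP300 were not computed for these 5222 regions. No paired analysis was possible because the EP300 replicates are not compared as groups and H3K4me1 has 1 list.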

Other observations

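Isolated regions often followed one another along a chromosome. The 5797 on assembled chromosomes formed 3410 runs with no other region in between, of which 1360 held at least 2 members and 3747 members in all. There were 115 runs of at least 5 members. The longest held 13, at chromosome 6, 38202800 to 39225599 (mm9), over 1.02 Mb, and 1 of its members overlapped an EP300 peak. The next held 12 over 3.89 Mb, at chromosome 14, 41886100 to 45774849, where no member overlapped EP300. The third held 9 over 2.71 Mb, at chromosome 10, 122511950 to 125219749, with EP300 at 1 member. The rule itself favours runs, because a region next to an isolated one already has 1 gap over 20000 bp. Runs were not compared with other arrangements.

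For most isolated regions EP300 was distant. The nearest summit lay a median of 105203 bp from the centre in replicate 1, against 19632 bp for regions with a neighbour, and over 100000 bp away for 51.9% and 20.7%. In replicate 2, which has more peaks, it was over 100000 bp away for 44.8% and 16.3%.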
